A study of Homo sapiens with 53 samples.

Results

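The 8 promoters described here belong to genes that cells switch on under chemical or protein stress: HMOX1, NQO1, GCLM and SLC7A11 of the electrophile response, and HSPA1A, HSPA1B, DNAJB1 and HSPH1 of the heat shock response. They were chosen by name, and every peak with any part within 5 kb of the hg19 start site of one of them was counted. This gave 74 peaks of the 706206 in 10 peak lists from HEK293T cells, a human embryonic kidney line. The series profiled chromatin immunoprecipitates (ChIP-seq) of CTCF and MBD3 from the parental line, and of Flag-tagged TET1, TET2 or TET3 from 3 derived lines, after 72 h in the solvent DMSO or in 30 µM BPK-25. Both treatments of a target used the same line, and each target and treatment has 1 deposited list for its replicates, of which the labels name 3, or 2 for TET2 under DMSO. How the Flag tags were introduced, and whether each line is a single clone, is not given in the sources used here. With 1 list a group, no value below has a spread between replicates and no difference between treatments could be tested.

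The electrophile response is driven by the factor NRF2, which KEAP1 holds back until reactive compounds modify its cysteines. NRF2 then binds antioxidant response elements before genes that make glutathione, detoxify quinones and break down heme. The heat shock response is driven by HSF1, which forms trimers when unfolded proteins accumulate and binds heat shock elements before chaperone genes. CTCF is a zinc-finger protein that marks insulators and loop anchors, MBD3 is a subunit of the NuRD remodelling and deacetylase complex, and TET proteins oxidise 5-methylcytosine.

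The bases before the start of 3 of these genes are shown because they bear on the strongest CTCF peak of the set and on the pair of near-identical copies in it. They come from RefSeq on GRCh38.p14, where the start may lie some bases away from the hg19 start site used for peaks. GCLM is on the minus strand at chr1:93909431-93909680, and HSPA1A and HSPA1B are on the plus strand at chr6:31815293-31815542 and chr6:31827488-31827737. Capitals mark CTCF-like core letters in GCLM and a heat shock element string in the other pair.
GCLM: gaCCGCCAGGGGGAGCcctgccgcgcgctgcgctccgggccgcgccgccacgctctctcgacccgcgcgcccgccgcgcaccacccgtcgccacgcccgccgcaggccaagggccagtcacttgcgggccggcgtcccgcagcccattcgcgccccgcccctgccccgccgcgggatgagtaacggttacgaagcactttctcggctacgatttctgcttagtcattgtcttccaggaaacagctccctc
HSPA1A: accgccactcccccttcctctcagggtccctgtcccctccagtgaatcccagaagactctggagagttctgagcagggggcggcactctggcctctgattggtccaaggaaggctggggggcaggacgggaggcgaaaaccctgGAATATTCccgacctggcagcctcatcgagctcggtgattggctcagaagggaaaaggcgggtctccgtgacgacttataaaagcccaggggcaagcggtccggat
HSPA1B: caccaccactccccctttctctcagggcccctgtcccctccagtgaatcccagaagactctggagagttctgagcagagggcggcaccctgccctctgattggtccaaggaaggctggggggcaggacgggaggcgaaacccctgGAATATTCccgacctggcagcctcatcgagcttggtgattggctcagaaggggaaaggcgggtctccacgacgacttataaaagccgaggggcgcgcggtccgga

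The capitals in GCLM match CCNNNAGNNGGNGC, a spelling of the CTCF core that was chosen after this sequence had been seen. Windows from 250 bases before to 50 after the start were searched on both strands, and 4.76% of all 35116 such windows hold it. The spelling CCNNNAGNNGGC, in 10.6% of windows, had no match at GCLM. Of the 3 windows of DNAJB1, 1 also holds both spellings, 151 and 70 bases before its start. That window lies apart from the other 2, and whether it is the start site used for peaks was not determined. The heat shock string GAANNTTC, in 6.77% of windows, occurs once each at HSPA1A and HSPA1B, beginning 106 and 105 bases before the start, and in 2 of the 3 windows of DNAJB1. The core of the antioxidant response element, TGACNNNGC, in 13.3% of windows, occurs at GCLM on the opposite strand, 34 bases before the start, and not in the window of NQO1. No string searched occurs in the windows of HSPH1 and NQO1. HMOX1 and SLC7A11 had no window among these reference promoters, so their sequences were not searched. The number of CpG dinucleotides in the window was 41 at GCLM and 14 to 18 at NQO1, HSPA1A, HSPA1B and HSPH1, against a median of 14 over all windows. It was 21, 49 and 36 in the 3 windows of DNAJB1.

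Every one of the 8 start sites had an MBD3 peak under DMSO, and 7 had a CTCF peak. MBD3 peaks were found at 8 of 8 start sites under DMSO and 7 of 8 under BPK-25, against 17.6% and 34.9% of 10 kb windows tiled over chromosomes 1 to 22 and X. CTCF peaks were found at 7 of 8 in either treatment, against 24.9% and 36.0% of windows. SLC7A11 was the site without a CTCF peak in either list, and also the site without an MBD3 peak under BPK-25. At the other 7 both targets had peaks in both treatments, against 11.5% of windows with both under DMSO and 28.0% under BPK-25. Random windows are not promoters, and the share of all promoters with a peak was not computed because no hg19 annotation was used.

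Flag peaks were sparser. TET1 had a peak at 3 start sites under DMSO (1.82% of windows) and at 0 under BPK-25 (0.108% of windows). TET2 had 1 (0.364% of windows) and 0 (0.101%). TET3 had peaks at 5 start sites under DMSO (3.97% of windows) and at 2 under BPK-25 (3.91%), and these were HMOX1 and SLC7A11, both of the electrophile group. The TET3 counts rest on weak peaks: with a -log10 q of at least 5 they were 1 and 1, and with at least 10 they were 0 and 1. The 3 TET1 start sites became 1 at either threshold.

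**Figure D1:**
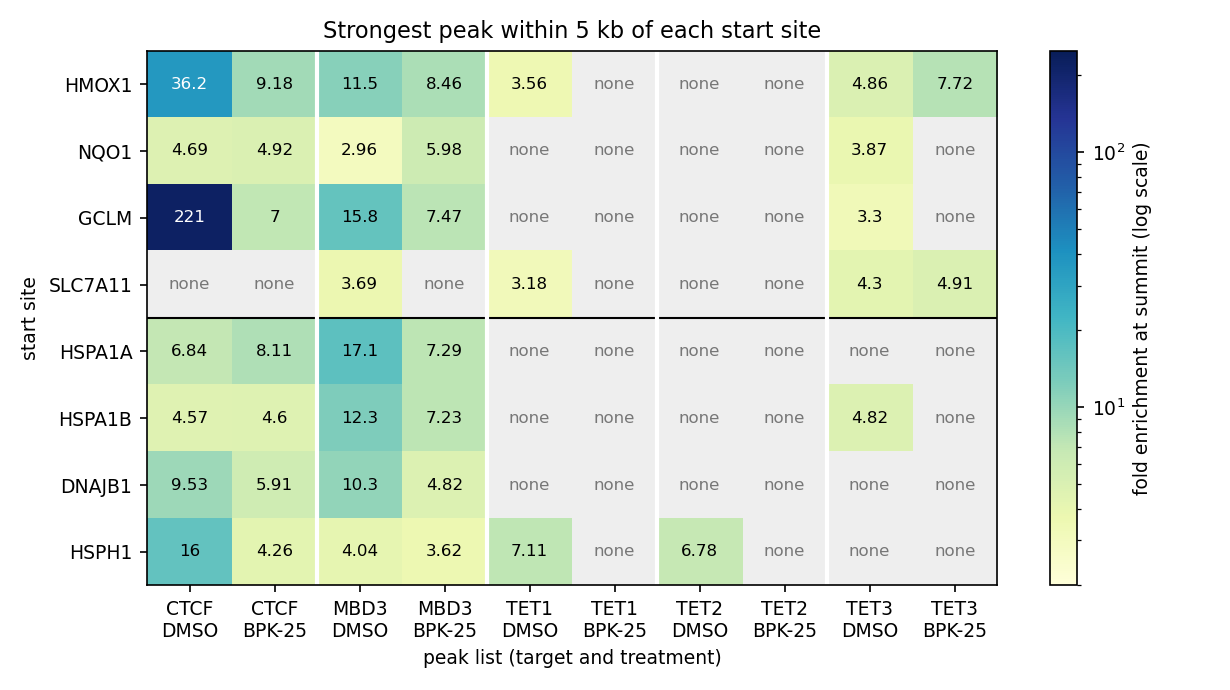
Fold enrichment at the summit of the strongest peak (highest -log10 q) within 5 kb of each start site (rows) in each peak list (columns), on a logarithmic colour scale; grey cells had no peak, and the black line separates the electrophile genes from the heat shock genes. GCLM and HMOX1 hold the highest CTCF values under DMSO, 221 and 36.2, and no CTCF or MBD3 value under BPK-25 reaches 10.

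Fold enrichment, the authors' ratio of summit pileup to local background, was 10 or more at 5 start sites for MBD3 under DMSO: HMOX1, GCLM, HSPA1A, HSPA1B and DNAJB1. Of all 10 kb windows, 1.78% held such an MBD3 peak. For CTCF under DMSO it was 10 or more at HMOX1, GCLM and HSPH1, against 15.6% of windows. Under BPK-25 no start site had a CTCF or MBD3 peak of 10 or more, in lists where 0.787% and 0.782% of windows did. The highest values there were 9.18 for CTCF and 8.46 for MBD3, both at HMOX1.

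The pileup, the number of fragments stacked over a summit, was recovered from the deposited columns and is given in multiples of the list's genome background, its lowest local background. Intervals are exact 95% intervals that cover counting error only, and a summit is by its choice a local maximum. The genome background was 3.68 fragments for CTCF and 3.21 for MBD3 under DMSO, and 2.58 and 2.57 under BPK-25, so the BPK-25 lists were shallower. At that background the lowest pileup called was 11 and 10 fragments under DMSO and 8 in both BPK-25 lists.

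The electrophile genes come first. GCLM encodes the modifier subunit of glutamate-cysteine ligase, which makes the first step of glutathione synthesis. Its start site is at chromosome 1, 94375012. The DMSO CTCF peak there, chr1:94375031-94375690, had its summit 258 bp upstream, a fold enrichment of 221 and 1371 fragments, or 372 times the genome background. It was the 2151st of 99587 peaks by -log10 q, with 2.16% of the list above it. Under BPK-25 the overlapping CTCF peak, with its summit 286 bp upstream, had a fold enrichment of 6.995 and 30 fragments, or 11.6 times the genome background. The DMSO multiple was 32.0 times the BPK-25 multiple (22.3 to 47.6), the widest gap among the CTCF and MBD3 sites compared here.

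MBD3 at the same place had 86 fragments under DMSO, 26.8 times the genome background at 262 bp upstream, and 32 fragments under BPK-25, 12.5 times at 285 bp upstream. The DMSO multiple was 2.15 times the BPK-25 multiple (1.42 to 3.33). A weaker site inside the gene behaved otherwise. There CTCF had 23 fragments under DMSO, 421 bp downstream, and 28 under BPK-25, 404 bp downstream, which is 6.25 and 10.9 times the genome background. The interval of their ratio included 1 (BPK-25 over DMSO 1.74, 0.966 to 3.16). MBD3 had 35 and 26 fragments at this downstream site, also not separated by counting error. A TET3 peak of 8 fragments, 484 bp upstream, was listed under DMSO, close to the threshold of its list, where 94.9% of peaks had a higher -log10 q.

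HMOX1 encodes heme oxygenase 1, which breaks down heme to biliverdin, iron and carbon monoxide. Its start site is at chromosome 22, 35777060. CTCF had 361 fragments under DMSO with the summit 55 bp into the gene, 98.1 times the genome background, and 48 fragments under BPK-25 with the summit at 138 bp, 18.6 times. The ratio of DMSO to BPK-25 was 5.26 (3.89 to 7.27). The BPK-25 peak was nevertheless high in its list, with 1.60% of peaks above it, whereas 20.7% were above the DMSO peak in the DMSO list. MBD3 had 82 fragments under DMSO, 25.5 times the genome background, and 44 under BPK-25, 17.1 times, a ratio of 1.49 (1.02 to 2.20).

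HMOX1 also had a distal site about 4 kb upstream, in the stretch chr22:35772717-35773209, where peaks of 5 lists had summits within 68 bp of each other. An enhancer with several antioxidant response elements, bound by NRF2 and by its competitor BACH1, is known upstream of this gene. TET3 had 23 fragments there under DMSO, 13.6 times the genome background, and 24 under BPK-25, 14.6 times, with summits 4000 and 3962 bp upstream. The interval of the BPK-25 to DMSO ratio included 1 (1.08, 0.581 to 1.99). Fold enrichment was 4.86 under DMSO and 7.72 under BPK-25. Local background, the divisor of that fold, stood at 2.32 and 1.36 times the genome level, while the fragment numbers were nearly equal. TET1 had 22 fragments under DMSO, 3960 bp upstream, and no peak under BPK-25. MBD3 had 53 fragments under DMSO, 16.5 times the genome background and 3991 bp upstream, and no peak under BPK-25. Its fold enrichment was 4.20, on a local background of 3.69 times the genome level. CTCF had a peak of 19 fragments under BPK-25, 4028 bp upstream, with 88.3% of its list above it, and none under DMSO. Local background was also raised at these TET1 and CTCF peaks, to 2.95 and 2.97 times the genome level. Farther into the gene, MBD3 had 22 fragments at 2356 bp under DMSO and 28 at 1876 bp under BPK-25, which did not overlap.

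NQO1 encodes the oxidoreductase that reduces quinones directly to hydroquinones. Its start site is at chromosome 16, 69760571. Within 1 kb of it the DMSO lists held MBD3 and TET3 but no CTCF peak, and the nearest DMSO CTCF summit was 4581 bp into the gene, with 25 fragments. MBD3 under DMSO had 27 fragments 244 bp upstream and 26 fragments 415 bp downstream, 8.41 and 8.09 times the genome background. Under BPK-25 MBD3 had 38 fragments 190 bp downstream, 14.8 times, and CTCF 29 fragments 189 bp downstream, 11.3 times. This was the site of higher MBD3 under BPK-25 beyond counting error (BPK-25 over DMSO 1.83, 1.08 to 3.14), although the summits lay 225 bp apart. BPK-25 lists also shared a weaker site before the gene that the DMSO lists lacked, with 14 CTCF fragments 709 bp upstream and 18 MBD3 fragments 754 bp upstream, and CTCF had 12 fragments 3662 bp downstream. A TET3 peak of 12 fragments 46 bp downstream under DMSO had no counterpart under BPK-25.

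SLC7A11 encodes the cystine-glutamate antiporter that supplies cysteine for glutathione. Its start site is at chromosome 4, 139163503. MBD3 under DMSO had 36 fragments 495 bp downstream, 11.2 times the genome background, and 26 fragments 53 bp downstream, 8.09 times. The MBD3 list under BPK-25 had no peak there, nor did either CTCF list. TET1 had 14 fragments under DMSO 52 bp downstream. TET3 had 16 fragments under DMSO, 31 bp upstream, and 11 under BPK-25, 71 bp upstream, 9.43 and 6.69 times the genome background (BPK-25 over DMSO 0.709, 0.297 to 1.63). A second BPK-25 TET3 peak of 12 fragments lay 369 bp downstream.

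The heat shock genes follow. HSPA1A and HSPA1B encode the stress-inducible chaperone HSP70, and are near-identical copies 12221 bp apart on chromosome 6, at 31783291 and 31795512. Over the 250 bases printed above, 235 of 249 aligned bases, 94.4%, were the same. How reads that map to both copies were treated is not given in the sources used here, so the values of the 2 genes are uncertain as measures of each copy. The local background stood at the genome background, within 1%, at 15 of the 20 CTCF and MBD3 peaks of this pair and at 0 of 42 at the other 6 genes. Whether shared reads account for this was not tested. HSPA1L, a testis-enriched HSP70 gene, neighbours HSPA1A on the opposite strand.

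Both copies carried the same pair of sites, an outer site 374 to 705 bp into the gene and an inner site 1800 to 1914 bp into it. At HSPA1A under DMSO, MBD3 had 37 fragments 434 bp into the gene and 71 fragments at 1897 bp, 11.5 and 22.1 times the genome background. At HSPA1B it had 34 fragments at 426 bp and 51 at 1817 bp, 10.6 and 15.9 times. The inner site was 1.92 times the outer (1.27 to 2.94) at HSPA1A, and at HSPA1B the interval of this ratio included 1 (1.50, 0.953 to 2.39). Under BPK-25 the inner site had 25 fragments at HSPA1A and 10 at HSPA1B, 9.74 and 3.90 times the genome background. The ratio of DMSO to BPK-25 was 2.27 (1.42 to 3.74) at HSPA1A and 4.08 (2.05 to 9.00) at HSPA1B. At the outer site the intervals included 1, with BPK-25 over DMSO 0.575 (0.304 to 1.05) at HSPA1A and 1.03 (0.602 to 1.75) at HSPA1B. The HSPA1A pair compares summits 271 bp apart, 434 bp into the gene under DMSO and 705 bp under BPK-25. A lower BPK-25 summit in the same peak, 472 bp into the gene, had 14 fragments, against 37 under DMSO at 434 bp. No interval was computed for these closer summits.

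CTCF was weaker than MBD3 at the inner sites under DMSO. It had 31 fragments at HSPA1A, 8.42 times the genome background, and 17 at HSPA1B, 4.62 times. Under BPK-25 it had 16 and 14 fragments there, 6.21 and 5.43 times. At the outer sites CTCF had 27 and 30 fragments under DMSO and 28 and 20 under BPK-25. None of these 4 CTCF sites differed between treatments beyond counting error. A DMSO TET3 peak of 12 fragments lay 374 bp into HSPA1B, and HSPA1A had none.

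DNAJB1 encodes an HSP40 co-chaperone that delivers unfolded proteins to HSP70. Its start site is at chromosome 19, 14629201. MBD3 under DMSO had 55 fragments 269 bp into the gene, 17.1 times the genome background, and 42 fragments 376 bp upstream, 13.1 times. Under BPK-25 it had 21 and 28 fragments at these sites, 8.18 and 10.9 times. The downstream site was lower beyond counting error (DMSO over BPK-25 2.09, 1.25 to 3.64), and at the upstream site the interval included 1 (1.20, 0.726 to 2.01). CTCF had its strongest DMSO peak, 59 fragments, 1952 bp into the gene, and no BPK-25 CTCF peak overlapped it. Weaker BPK-25 peaks lay nearby, CTCF with 16 fragments at 2723 bp and MBD3 with 11 at 2280 bp. The other DMSO CTCF peak, 25 fragments 212 bp downstream, was met by 22 fragments at 238 bp under BPK-25, and the interval of the ratio included 1 (BPK-25 over DMSO 1.26, 0.676 to 2.32). A BPK-25 CTCF peak of 29 fragments 338 bp upstream, at the upstream MBD3 site, had no DMSO counterpart. No TET list had a peak at DNAJB1.

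HSPH1 encodes HSP110, which exchanges the nucleotide of HSP70. Its start site is at chromosome 13, 31736502. CTCF had 125 fragments under DMSO 39 bp upstream, 34.0 times the genome background, and a lower summit of 66 fragments 362 bp downstream in the same peak. Under BPK-25 the overlapping CTCF peak had its summits 504, 774 and 1000 bp into the gene, the highest with 25 fragments, so the summits of the pair lay 813 bp apart. The BPK-25 peak did not reach the DMSO summit, and the BPK-25 list holds no CTCF peak there. MBD3 had 27 fragments under DMSO 54 bp upstream, 8.41 times the genome background, and no BPK-25 peak overlapped it. A further DMSO MBD3 peak of 17 fragments lay 1316 bp downstream. At the site between them MBD3 had 18 fragments 567 bp downstream under DMSO and 19 at 750 bp under BPK-25. TET1 had 31 fragments 405 bp downstream, 16.8 times the genome background, and TET2 17 fragments 374 bp downstream, 13.6 times. These were the strongest TET1 and the sole TET2 peak of the 8 genes, and neither had a BPK-25 counterpart.

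Across the 8 genes, 9 of 11 DMSO CTCF peaks overlapped a BPK-25 CTCF peak, against 39.2% of all DMSO CTCF peaks. For MBD3 it was 11 of 18, against 61.4%, a share near that of the list as a whole. For TET3 it was 2 of 5, against 31.9%, for TET1 0 of 3, against 4.59%, and for TET2 0 of 1, against 24.7%. Of the 8 CTCF pairs with summits within 200 bp of each other, BPK-25 was lower beyond counting error at 2, the start sites of HMOX1 and GCLM, and the interval of the ratio included 1 at 6. The remaining CTCF pair, at HSPH1, compares places 813 bp apart and is no measure of the start site. Over all 38839 overlapping CTCF pairs, BPK-25 was lower at 52.0% and higher at 16.1%. Over the 26161 of them with summits within 200 bp, BPK-25 was lower at 50.4% and higher at 15.7%. Of the 9 MBD3 pairs with summits within 200 bp it was lower at 5 and higher at 0, and of all 11 pairs it was higher at 1, NQO1. Over all 50222 overlapping MBD3 pairs it was lower at 14.2% and higher at 28.6%. The median ratio of BPK-25 to DMSO was 0.952 for CTCF and 0.671 for MBD3 at all pairs of these genes, HSPH1 included. Over all overlapping pairs of the lists it was 0.545 (quartiles 0.0937 and 1.33) and 1.22 (0.770 and 2.03). With summits within 200 bp the medians were 1.06 for CTCF and 0.671 for MBD3 at these genes, against 0.581 and 1.18 over the lists. These counts and medians take the sites of the near-identical copies HSPA1A and HSPA1B as separate pairs. The 6 CTCF pairs whose interval included 1 were weak under DMSO, with fold enrichments of 3.71 to 6.84. The median of the DMSO CTCF list was 11.3. No comparison was made with list pairs of like strength.

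**Figure D2:**
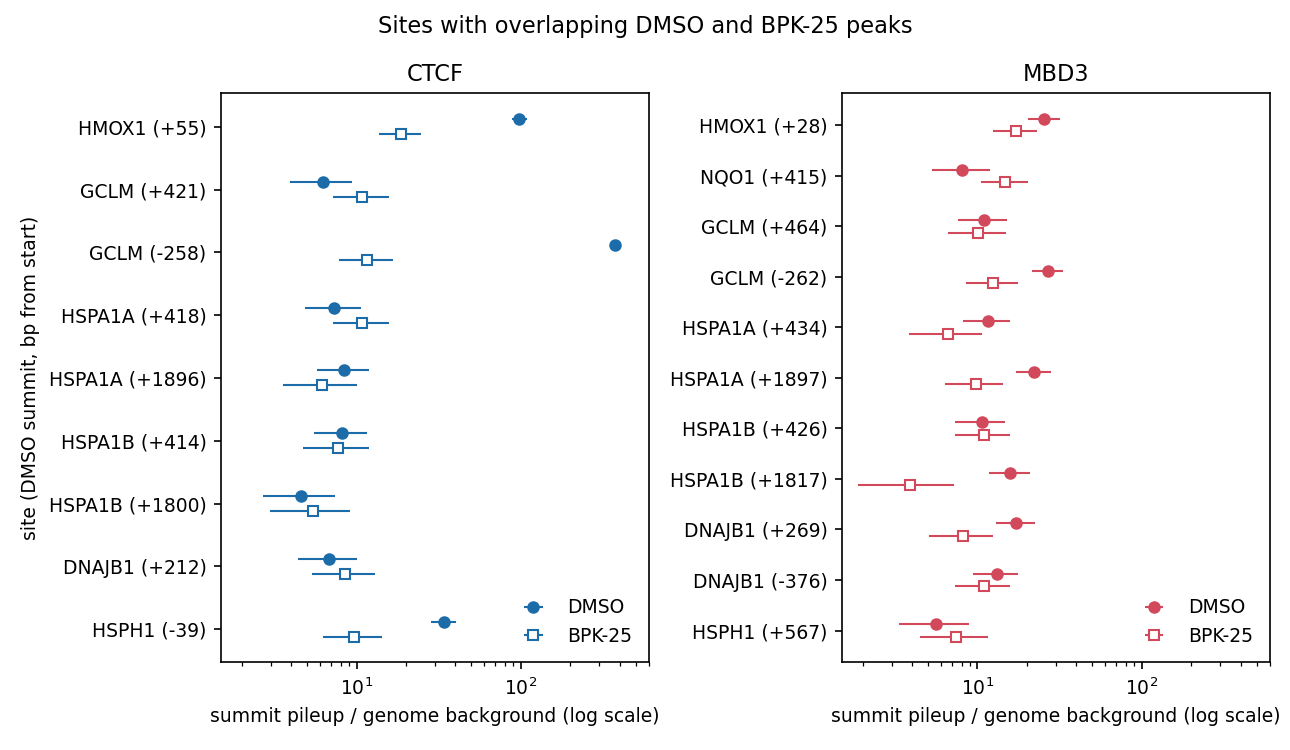
Summit pileup in multiples of the genome background (logarithmic axis) at sites where a DMSO peak (filled circle) overlapped a BPK-25 peak (open square), for CTCF (9 sites) and MBD3 (11 sites), with exact 95% counting intervals; labels give the DMSO summit in bp from the start site. The CTCF values of GCLM and HMOX1 fall from 372 and 98.1 to 11.6 and 18.6. Some BPK-25 summits lie away from the labelled place: by 813 bp for CTCF at HSPH1, and for MBD3 by 225 bp at NQO1 and 271 bp at the outer HSPA1A site.

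CTCF and MBD3 had unlike heights at many sites of these genes under DMSO and like heights within counting error under BPK-25, as in the lists as a whole. Of 9 sites where their DMSO peaks overlapped, CTCF was higher beyond counting error at 3, at HMOX1 by 3.84 times (3.01 to 4.94), at GCLM by 13.9 times (11.2 to 17.5) and at HSPH1 by 4.04 times (2.65 to 6.37). MBD3 was higher at 4, the inner sites of HSPA1A and HSPA1B, the downstream site of GCLM and DNAJB1. Over all 36505 overlapping pairs of the DMSO lists, CTCF was higher at 56.3% and MBD3 at 17.3%. Of 13 such sites under BPK-25, the interval of the ratio of CTCF to MBD3 included 1 at all 13, and the ratio ranged from 0.637 to 1.64 with a median of 1.03. Over all 168340 such pairs of the BPK-25 lists CTCF was higher at 0.713% and MBD3 at 1.96%, with a median ratio of 0.996. The BPK-25 pileups were low, 10 to 48 fragments, so each interval is wide. CTCF and MBD3 shared their parental input libraries within each treatment, and the part of this common control in the likeness was not tested.

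**Figure D3:**
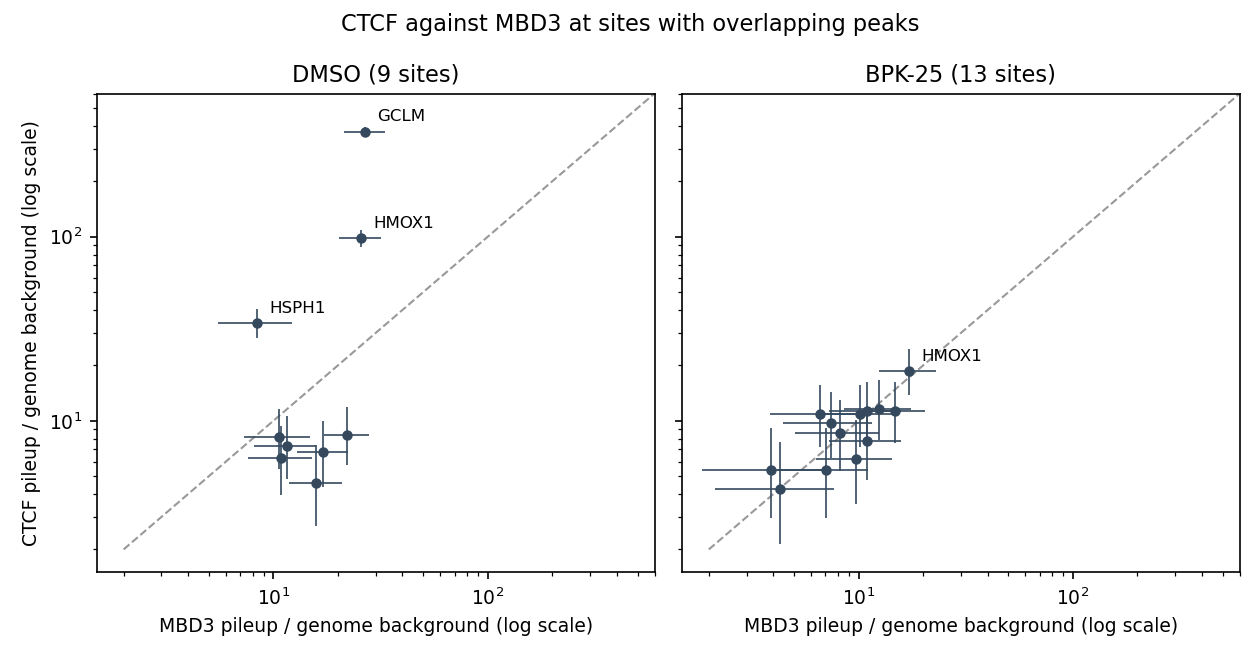
CTCF pileup against MBD3 pileup, each in multiples of its genome background (logarithmic axes), at the sites near the 8 genes where peaks of both targets overlapped, under DMSO (9 sites) and BPK-25 (13 sites); bars are exact 95% counting intervals and the dashed line marks equal values. Under DMSO the GCLM, HMOX1 and HSPH1 start sites stand above the line, and under BPK-25 the 13 sites lie along it. The BPK-25 summits of the outer HSPA1A site lie 238 bp apart.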

How the data were processed

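Labels describe 53 samples, 29 immunoprecipitates and 24 inputs, in 18 groups. Analysis began from 10 deposited narrowPeak lists, each read as 1 call over all replicates of a group, since the labels name 1 list per group. The submitters' processing notes name MACS2 2.1.2 and the hg19 build, bedtools 2.25.0, SAMtools 1.9, and also FastQC 0.11.7 and Bowtie2 2.3.4, with roles and parameters not given in the sources used here. Per the file format, each deposited row gives the authors' fold enrichment (a ratio of pileup to local background), -log10 p-value and -log10 q-value columns, a score that is 10 times the -log10 q, and the summit offset. The lowest deposited -log10 q was about 1.30 in all lists, that of a q of 0.05.

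Overlapping or touching rows were merged per list (Python 3.11.15, pandas 2.3.3), keeping the summit of highest -log10 q. Fold enrichment was read as (n + 1) over (background + 1), and with the Poisson -log10 p it gave the pileup n and the local background (scipy 1.17.1), tested first on simulated data. Of summits under 200 fragments, 100% came out within 0.02 of a whole number. Overlap means 1 bp; ratios over all overlapping pairs, and over pairs with summits within 200 bp, were added after the members' values were seen. Background windows (303493) were tiled and include assembly gaps. Depth per library was not used here. Distances follow gene strand, which for HMOX1 and SLC7A11 is general knowledge. All 8 genes are named, with the peak of highest -log10 q in each list and the other peaks by position. Members, lists and tests were chosen with earlier results of these data known. The CTCF string first planned was mis-spaced and was replaced. hg19 start sites of other pathway genes were not used here. Alternatives covered the distance, the -log10 q, merging, list size, overlap and the copies.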

Additional observations from a re-analysis of the deposited data

How the results depend on the processing

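Leaving out results that are 0 as reported, 61 of 72 recounts of start sites with a peak under other settings stayed within 1.5 times the count given, and of 30 recounts of start sites with a retained peak 25 did. The rest were mostly TET counts, but also MBD3 under DMSO and retained CTCF peaks at a -log10 q of at least 10. The cause was not tested. At a -log10 q of at least 10, MBD3 under DMSO stood at 5 start sites, TET1 under DMSO at 1, TET2 under DMSO at 0, TET3 under DMSO at 0 and under BPK-25 at 1, and retained peaks at 3 for CTCF and 0 for TET3. At a -log10 q of at least 5, TET1 under DMSO stood at 1 start site, TET3 at 1 in either treatment, and retained TET3 peaks at 1. With equal numbers of the strongest peaks, TET1 under DMSO stood at 1. With peaks within 1 or 2 kb, TET3 under BPK-25 stood at 1 and retained TET3 peaks at 1, since the HMOX1 site lies farther out. The direction between treatments turned at a -log10 q of at least 10, where MBD3 stood at 5 start sites under DMSO and 6 under BPK-25, and TET3 at 0 and 1. For CTCF, 7 in both treatments became 6 under DMSO and 5 under BPK-25 there, and 6 and 7 with peaks within 1 or 2 kb. Among windows with a peak in at least 1 list, 47.3% held a DMSO CTCF peak and 33.4% a DMSO MBD3 peak. No paired analysis was possible because replicates are pooled in each list, and leaving out a replicate was not possible for the same reason. The smallest difference between treatments beyond counting error at a shared site was 1.49 times, for MBD3 at HMOX1, with 82 and 44 fragments. At sites with fewer fragments, larger ratios were not beyond counting error. An example is CTCF at the downstream site of GCLM, with BPK-25 over DMSO 1.74 (0.966 to 3.16). The number of fragments limits what differences could show, and this limit varies between sites.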

Other observations

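HSPA1A and HSPA1B carried weak BPK-25 peaks between their outer and inner sites that the DMSO lists did not hold. MBD3 had 11 fragments 1197 bp into HSPA1A, and 11 and 12 fragments 1120 and 1492 bp into HSPA1B, and CTCF had 11 fragments 1152 bp into HSPA1B. These pileups are close to 8 fragments, the lowest called at the genome background in both BPK-25 lists.

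Reference promoters of other genes of the 2 pathways were searched for the same strings, as a description of sequence alone. All 12 heat shock genes listed had a window, and in 9 of them, among them HSPA8, HSPB1 and DNAJA1, a window held GAANNTTC or TTCNNGAA, against 13.5% of all windows. Of 14 electrophile genes listed 12 had a window, and in 5, KEAP1, ME1, PGD, PIR and TXNRD1, a window held TGACNNNGC, against 13.3% of all windows. The strings were not confined to their own pathway. TGACNNNGC was also held by 3 of the 12 heat shock genes, and a heat shock string by 2 of the 12 electrophile genes. A gene with several windows had more chances to hold a string.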
